A study of Mus musculus with 20 samples.

Results

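Fibroblast growth factors (FGFs) and their receptors were followed across 10 mouse pluripotent stem cell lines through 10 genes: the ligands Fgf22, Fgf4, Fgf8, Fgf15, Fgf17 and Fgf10, and the receptors Fgfr1, Fgfr2, Fgfr3 and Fgfr4. Every probe whose gene name on the array equalled one of these symbols was taken, which gave 18 of the 55681 probes on the array. All 18 passed the filter on dim probes, which kept 38756 probes. Fgf22 was chosen by its measured difference between SNEL and OSKM lines on these same arrays, so its values are given as a description and with no test. The other 9 genes were chosen for their family, with earlier results of these data known.

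The study set induced pluripotent stem cells (iPSCs), which are somatic cells reprogrammed by introduced transcription factors, beside embryonic stem cells (ESCs). Of the 7 iPSC lines, 3 were made with Sall4, Nanog, Esrrb and Lin28 (SNEL): Nanog-GFP SNEL#2 and Oct4-GFP SNEL#1, graded high quality, and Nanog-GFP SNEL#3, graded good. The other 4 were made with Oct4, Sox2, Klf4 and Myc (OSKM): BC_2 OSKM, graded good, and KH2_OSKM, Nanog-GFP OSKM#2 and Oct4-GFP OSKM#2, graded poor. The ESC controls were 3 lines named for the same origins, Oct4-GFP ESCs, Nanog-GFP ESCs and KH2 ESCs. All cells grew without feeders in 2i medium, in the basal condition with no treatment, and total RNA of each line was hybridised to 2 arrays spread over 3 slides. Both high-quality lines were SNEL and all poor lines were OSKM, so grade and factor set cannot be told apart across most of the design. Nothing in the labels tells if both arrays of a line used separate cultures, so the spread between its arrays may be technical. Groups were therefore compared with the line as the unit. The test among lines, limma's moderated F test, took the 2 arrays of a line as replicates, so it sets lines against that spread.

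FGFs are secreted proteins that bind receptor tyrosine kinases together with heparan sulphate, and the receptors signal through RAS and ERK. In mouse ESCs, Fgf4 is made by the cells themselves, acts on Fgfr1 and Fgfr2, and moves cells towards lineage commitment. The 2i medium holds inhibitors of MEK, the kinase just above ERK, and of GSK3, and so keeps this response low. Fgf22 belongs to the same subfamily as Fgf10 and is best known as a signal from neurons that organises presynaptic endings.

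A level here is the log2 of the background-corrected signal of a probe, relative to the 75th percentile of the probes on the same array, so that 0 stands for that percentile. Differences are on the same log2 scale. The lines carried the markers of their labelled identity: all 20 pluripotency markers examined, among them Pou5f1, Sox2 and Nanog, were well above background on every array. Of 20 fibroblast markers, 5 to 16 were above background on both arrays of a SNEL line, 12 to 14 in an OSKM line and 17 to 18 in an ESC line, and the log2 of their summed level ranged from 7.43 to 7.72, 6.90 to 7.80 and 7.29 to 7.64 in these groups. Of 12 primitive endoderm markers, 5 to 9 were above background in a SNEL line, 9 to 11 in an OSKM line and 10 to 11 in an ESC line. The fibroblast sum was close to the level of 1 marker, Fn1, a matrix protein that lay between 6.83 and 7.77 in all lines. It therefore says little about the other markers. The mean level of the 20 fibroblast markers ran from -3.95 in Nanog-GFP SNEL#3 to -1.53 in KH2 ESCs. Col1a1, a fibroblast collagen, had line means of -1.32, -5.08 and 1.61 in SNEL lines, -0.50, -1.81, -3.56 and -1.28 in OSKM lines and 1.70, 1.67 and 0.74 in ESC lines. The share of probes above background was 55.8% and 58.8% on the arrays of Nanog-GFP SNEL#2, 48.9% and 51.4% in Nanog-GFP SNEL#3 and 49.5% and 68.0% in Oct4-GFP SNEL#1, and the first array of KH2_OSKM had the highest, at 77.2%. The part of these differences in the results was not tested.

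The 2 Fgf22 probes read different stretches of the gene, and their sequences are shown because their values went opposite ways. Probe A_55_P2006215 lies in the coding part at chr10:79219513-79219572 (mm9, plus strand). Probe A_55_P2006210 lies 1769 bases further downstream at chr10:79221282-79221341, at position 2069 of an Ensembl transcript, and the array file pairs it with no RefSeq transcript. The coding probe is given whole and the downstream probe by its first 30 bases. GC made up 55% of the coding probe and 35% of the downstream probe, with a median of 43.3% over all probes.
Fgf22 A_55_P2006215: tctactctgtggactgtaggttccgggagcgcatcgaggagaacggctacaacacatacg
Fgf22 A_55_P2006210, first 30 bases: gctctgcttttttgagtaggtgtattttaa

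The receptors hold the other informative pairs. The 2 Fgfr2 probes share 42 bases, printed in capitals, at the end of the coding region (chr7:137307473-137307532 and chr7:137307455-137307514, mm9, minus strand). The second probe adds 18 bases beyond the shared stretch. Of the 2 Fgfr3 probes, A_65_P06147 lies in the coding region and spans 235 bases of genome, so it crosses an exon junction (chr5:34077856-34078090, mm9, plus strand). A_55_P1996578 lies at the far 3′ end (chr5:34079649-34079708), and the capitals in its last 30 bases mark AATAAA, the letters of the usual polyadenylation signal. These 6 letters, searched on the strand printed, occur in 5602 of the 55681 probes on the array.
Fgfr2 A_55_P2094881: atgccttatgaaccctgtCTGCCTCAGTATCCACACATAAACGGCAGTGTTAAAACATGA
Fgfr2 A_51_P432403: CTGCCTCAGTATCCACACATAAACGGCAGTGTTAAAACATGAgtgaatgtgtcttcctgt
Fgfr3 A_65_P06147: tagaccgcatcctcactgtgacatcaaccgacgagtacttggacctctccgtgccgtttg
Fgfr3 A_55_P1996578, last 30 bases: ttactttccaaaaAATAAAgagataactgg

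Fgf22 showed its excess in SNEL lines on the downstream probe alone, and on only 1 of the 2 arrays of each line. On A_55_P2006210 the first arrays of Nanog-GFP SNEL#2, Nanog-GFP SNEL#3 and Oct4-GFP SNEL#1 gave levels of -0.26, -0.61 and -0.57. The second arrays of the same lines gave -2.98, -2.86 and -2.53. The OSKM lines lay between -3.69 and -3.08 on their 8 arrays, and the ESC lines between -3.28 and -2.87 on their 6 arrays. The first SNEL arrays stood apart from all others, while the second SNEL arrays were just above the OSKM range and overlapped the ESC range. All 3 first SNEL arrays were on slide 1.

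Averaged by line, this probe had a level of -1.64 in SNEL lines and -3.34 in OSKM lines, a difference of 1.70 ± 0.14 (SE, 3 and 4 lines). Each SNEL line mean averages 1 raised array and 1 lower array. The SE is taken over line means, so it does not show the spread between the arrays of a line (SD 0.91). The contrast of SNEL with OSKM lines chose the gene, so no test is given. Without the first SNEL arrays, an alternative chosen after seeing the data, the difference was 0.55. It was 2.97 within slide 1 and 0.30 within slide 2. Against ESC lines, at -3.00, the SNEL difference was 1.37 over all arrays, 2.80 within slide 1, 0.06 within slide 2 and 0.40 within slide 3.

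The coding probe A_55_P2006215 ran the other way. Its levels were -4.61 and -4.82 in Nanog-GFP SNEL#2, -4.44 and -5.14 in Nanog-GFP SNEL#3, and -3.51 and -3.41 in Oct4-GFP SNEL#1. Both arrays of Nanog-GFP SNEL#3 were not well above background. In OSKM lines the 8 arrays ranged from -4.45 to -2.53, with the highest value on the first array of KH2_OSKM, and in ESC lines the 6 arrays ranged from -4.02 to -3.15. The line means of SNEL and OSKM lines overlapped, at -4.32 ± 0.74 and -3.66 ± 0.58 (SD, n = 3 and 4 lines), and the difference was -0.66. Its first and second SNEL arrays did not part as those of the downstream probe did. Over the 10 lines the 2 Fgf22 probes had a Pearson correlation of -0.44, as a description of lines that share arrays and slides. The mean of their differences between SNEL and OSKM lines was 0.52.

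**Figure D1:**
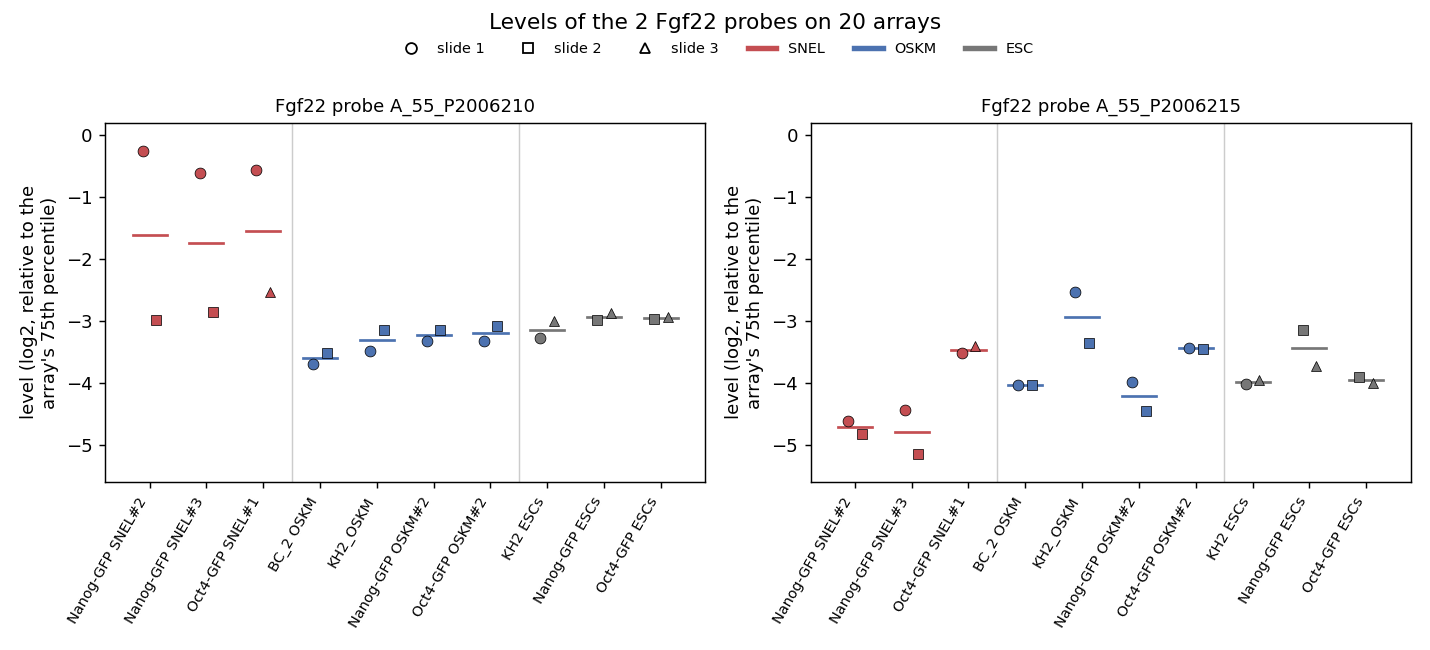
Levels of both Fgf22 probes on each of the 20 arrays (y axis, log2 relative to the array's 75th percentile), by line on the x axis with SNEL, OSKM and ESC lines from left to right. Symbols give the slide and bars the mean of a line. On the downstream probe (left) the first SNEL arrays lie between -0.61 and -0.26 and every other array between -3.69 and -2.53, and on the coding probe (right) the SNEL lines are not raised.

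The spots printed around the downstream Fgf22 probe were raised on some of the same arrays. Its spot had a signal of 494.6, 336.5 and 400.9 on the first arrays of Nanog-GFP SNEL#2, Nanog-GFP SNEL#3 and Oct4-GFP SNEL#1, against 90.3, 85.7 and 139.2 on their second arrays. Relative to its own median over 20 arrays, the spot was shifted by 2.73, 2.38 and 2.42 on these first arrays. The median shift of the 24 surrounding spots, which hold unrelated probes, was 0.70, 1.79 and 1.16 there. Such a neighbour shift exceeded that of 99.2%, 99.9% and 99.8% of the spots on the same array. Of the 24 neighbours, 12, 22 and 20 were higher on the first array than on the second of the same line. On the other 17 arrays the neighbour shift lay between -0.58 and 0.37. In Nanog-GFP SNEL#2, where Fgf22 was brightest, the neighbours were thus evenly split. The share of these shifts in the Fgf22 values was not tested.

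**Figure D2:**
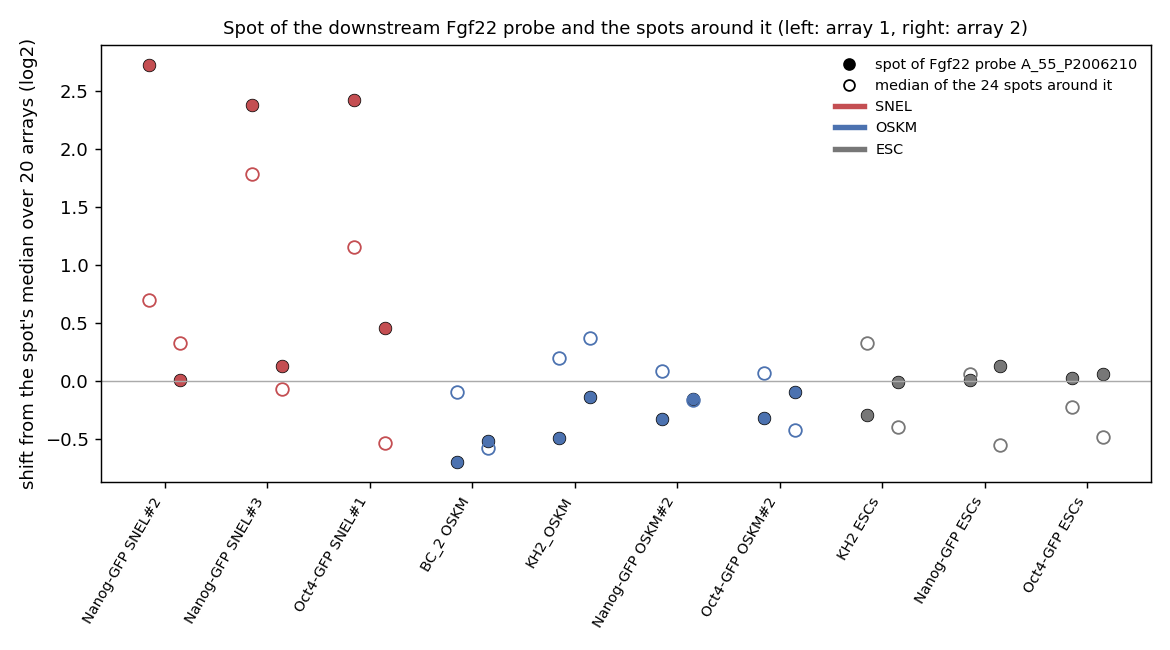
Shift of the downstream Fgf22 spot (filled) and median shift of the 24 spots around it (open) from each spot's own median over 20 arrays, on the log2 scale, by line with array 1 left and array 2 right. On the first SNEL arrays the Fgf22 spot is up by 2.38 to 2.73 and its neighbours by 0.70 to 1.79, and all other arrays lie between -0.70 and 0.46.

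This pattern was rare but not limited to Fgf22. The first array exceeded the second by more than 1 in every SNEL line on 55 of the 38756 kept probes (0.142%), and the second exceeded the first by as much on 227. The 5 genes whose line means were most like the downstream Fgf22 probe were Pigb (Pearson r = 0.925 over 10 lines), Pmepa1 (0.921), Zdhhc9 (0.921), Pdcd6ip (0.900) and Setbp1 (0.893). Pigb shared the split between arrays, with its first array higher than its second by 6.87, 5.27 and 5.74 in the 3 SNEL lines and only 4 of 20 arrays above background. Zdhhc9, a protein palmitoyltransferase, had no such split (0.06, -0.01 and 0.06) and was bright on both arrays of each SNEL line. The 5 genes most like the coding probe were a transcript known only by its Ensembl identifier (0.976), Sec22c (0.962), Acss2 (0.959), 5730409E04Rik (0.956) and Med21 (0.954). None of these genes is an FGF ligand or receptor.

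Among the other ligands, Fgf4, the autocrine ligand of ESCs, was bright everywhere. Its probe had levels of 6.63 and 6.62 in Nanog-GFP SNEL#2, 6.97 and 7.03 in Nanog-GFP SNEL#3, and 7.11 and 7.08 in Oct4-GFP SNEL#1. In OSKM lines the 8 arrays ranged from 6.68 to 6.98, and in ESC lines they were 6.63 and 6.63 (KH2), 7.22 and 7.18 (Nanog-GFP) and 6.59 and 6.59 (Oct4-GFP). The spread between lines (SD 0.21) was larger than that between the arrays of a line (SD 0.05), and the whole range was 1.52-fold. The lines differed by limma's moderated F test over 20 arrays (adjusted p = 3.07e-05). SNEL lines were at 6.91 and OSKM lines at 6.81, a difference of 0.09 ± 0.19 (adjusted p = 0.887 with limma), and both OSKM and ESC lines averaged 6.81.

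Fgf10, known for limb and lung outgrowth, and Fgf17, a close relative of Fgf8 known from the midbrain organiser, varied most clearly from line to line. Fgf10 had levels of -0.78 and -0.72 in Nanog-GFP SNEL#2, -0.43 and -0.42 in Nanog-GFP SNEL#3 and -2.57 and -2.41 in Oct4-GFP SNEL#1. The OSKM arrays read -0.09 and -0.14 in BC_2 OSKM, -1.16 and -1.28 in KH2_OSKM, -0.97 and -0.97 in Nanog-GFP OSKM#2 and -2.20 and -2.10 in Oct4-GFP OSKM#2, and the ESC arrays lay between -1.44 and -1.16. Both iPSC lines named Oct4-GFP were thus below every other line, and BC_2 OSKM was above all, by 5.19-fold over Oct4-GFP SNEL#1. Arrays of a line agreed closely (SD 0.05, against 0.72 between lines), and the lines differed (adjusted p = 1.52e-09, limma's F test). Each array value of this probe is a mean of repeated spots, unlike that of most probes. SNEL and OSKM lines did not separate, at -1.22 and -1.11.

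Fgf17 was lowest in Oct4-GFP SNEL#1, at -4.54 and -4.38, where 1 of 2 arrays was above background, and highest in KH2 ESCs, at -0.90 and -1.24. The range was 10.5-fold, and the lines differed (adjusted p = 8.77e-06, limma's F test). In Nanog-GFP SNEL#2 the level was -1.66 and -1.67, in Nanog-GFP SNEL#3 -2.26 and -2.24. The 4 OSKM lines were close together, with means from -2.85 to -2.41, although the arrays of KH2_OSKM read -2.17 and -3.13. The means of SNEL and OSKM lines, -2.79 and -2.68, hide the opposite order of the SNEL lines: the Nanog-GFP SNEL lines were above every OSKM line and Oct4-GFP SNEL#1 below all of them.

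Fgf15, an intestinal signal to the liver in adult mice, and Fgf8, an organiser of the gastrulating embryo and of the midbrain border, were dim. Fgf15 ranged from -4.37 to -2.96 over the 20 arrays, 19 of them above background, with BC_2 OSKM highest (-2.96 on both arrays). Its lines differed narrowly (adjusted p = 0.0403, limma's F test), and that call was lost on leaving out any 1 of 5 lines (Nanog-GFP OSKM#2, Oct4-GFP OSKM#2, BC_2 OSKM, Nanog-GFP SNEL#2 or Oct4-GFP SNEL#1, adjusted p 0.0548 to 0.124). With no filter on dim probes the call was lost as well (adjusted p = 0.0625, limma's F test).

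The 3 Fgf8 probes did not tell 1 story. A_55_P2101508, at chr19:45811355-45811414, was above background on all arrays, from -3.90 to -2.07, lowest in Nanog-GFP OSKM#2 (-3.40 and -3.90) and highest in Oct4-GFP ESCs (-2.11 and -2.07), and its lines differed (adjusted p = 3.09e-05, limma's F test). A_55_P2108109, at chr19:45811668-45811727 in the coding part, followed it over the lines (Pearson r = 0.80, n = 10 lines), but its first KH2_OSKM array stood out at -2.20 beside -3.98 on the second. A_55_P2101506, 5187 bases away from A_55_P2108109 in the 5′ part of the transcript, was above background on 4 arrays only. These were the first arrays of Nanog-GFP SNEL#2 (-1.35) and Nanog-GFP SNEL#3 (-3.72) and both arrays of KH2_OSKM (-4.04 and -4.79). Its second arrays in the Nanog-GFP SNEL lines read -7.27 and -6.60, so this probe, like the downstream Fgf22 probe, parted the arrays of a SNEL line. The neighbour shift of its spot was 0.99 on the first array of Nanog-GFP SNEL#2 and 0.64 on that of Nanog-GFP SNEL#3. It correlated with the other 2 Fgf8 probes at -0.28 and 0.15, and its lines did not pass the F test (adjusted p = 0.268). Fgf8 is known for splice forms that differ in the 5′ part, and the 2 coding probes are shown for that reason (mm9, minus strand).
Fgf8 A_55_P2101506: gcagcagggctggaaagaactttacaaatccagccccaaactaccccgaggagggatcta
Fgf8 A_55_P2108109: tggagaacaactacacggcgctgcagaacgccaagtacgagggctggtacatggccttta

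**Figure D3:**
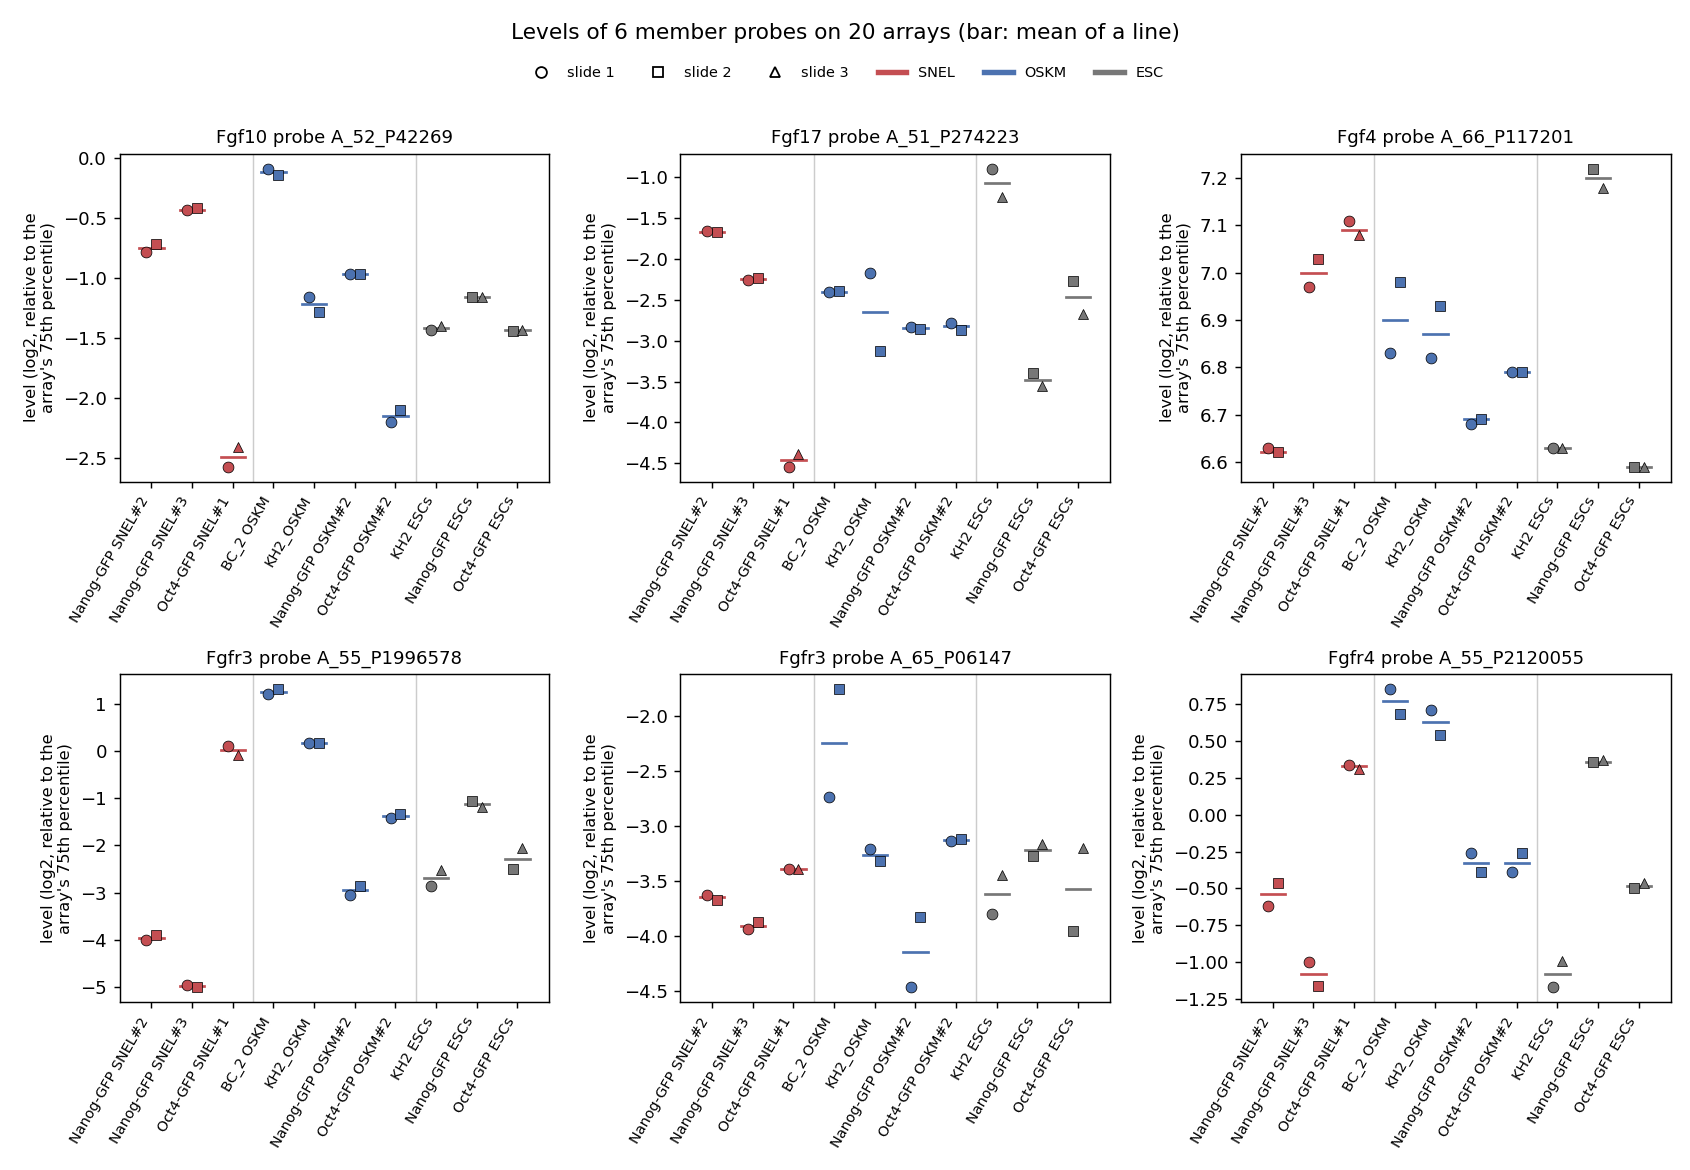
Levels of Fgf10, Fgf17, Fgf4, both Fgfr3 probes and the 3′ Fgfr4 probe on the 20 arrays (y axis, log2 relative to the array's 75th percentile, a scale of its own in each panel), by line with SNEL, OSKM and ESC lines from left to right. Symbols give the slide and bars the mean of a line. Fgfr3 is highest in BC_2 OSKM, Fgfr4 in BC_2 OSKM and KH2_OSKM, Fgf17 in KH2 ESCs, and Fgf10 is lowest in Oct4-GFP SNEL#1 at -2.49.

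Among the receptors, Fgfr1, the main receptor of naive ESCs, had levels of 3.69 and 3.71 in Nanog-GFP SNEL#2, 3.85 and 3.80 in Nanog-GFP SNEL#3 and 3.74 and 3.52 in Oct4-GFP SNEL#1 on its probe A_55_P2057777. The OSKM arrays ranged from 3.21 in BC_2 OSKM to 4.35 in Nanog-GFP OSKM#2, and the ESC arrays from 3.40 to 3.96. The coding probe A_55_P1967022 gave nearly the same order of lines (Pearson r = 0.99 and Spearman rho = 0.98, n = 10 lines), and on both probes Nanog-GFP OSKM#2 was highest and BC_2 OSKM lowest, 2.00-fold and 1.94-fold apart. Lines differed on both (adjusted p = 0.000174 and 0.000469, limma's F test).

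On A_55_P2057777 the good and high-quality lines were all below the poor lines, at 3.61 ± 0.22 and 4.06 ± 0.23 (SD, n = 4 and 3 lines). The difference of -0.45 ± 0.19 (SE) did not pass after adjustment over all probes (adjusted p = 0.906, limma, unadjusted p = 0.0475). It was -0.45 within slide 1 and -0.42 within slide 2. All 3 poor lines were OSKM lines, and the good OSKM line, BC_2 OSKM, was the lowest of all 10 lines. SNEL and OSKM lines overlapped on this probe (-0.16, adjusted p = 0.832, limma).

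The other Fgfr1 probe, A_55_P1967015, did not follow them (r = 0.36 and 0.28), and its lines did not pass the F test (adjusted p = 0.697). On the first Nanog-GFP SNEL#3 array, where the probe read -0.44 against -1.05 on the second, the neighbour shift of its spot was 1.63. The part of that shift in the values was not tested. The probe's SD between lines was 0.16, below the 0.25 between arrays of a line. Its last 30 bases, from chr8:26685820-26685879 (mm9, plus strand), are shown because they are nearly all G and T in repeats (96.7%, with a median of 50% in the last 30 bases of all probes).
Fgfr1 A_55_P1967015, last 30 bases: ttgtttgtttggttggttggttggtctttt

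Fgfr2, which in the early embryo marks the primitive endoderm lineage, varied little on the probe that ends with the shared bases, A_55_P2094881. Levels were -2.09 and -2.04 in Nanog-GFP SNEL#2, -1.90 and -2.08 in Nanog-GFP SNEL#3, and -2.33 and -1.89 in Oct4-GFP SNEL#1. The OSKM arrays ranged from -2.61 to -2.21 and the ESC arrays from -2.47 to -1.73. Lines did not pass the F test (adjusted p = 0.176), though they did under quantile normalization (adjusted p = 0.047, and 0.0473 with normexp added). Line means of SNEL lines were all above those of OSKM lines, at -2.05 and -2.35, with a difference of 0.30 ± 0.14 (SE, adjusted p = 0.542, limma). The overlapping probe A_51_P432403, printed in 10 spots, was above background on only 8 of 20 arrays, and its line means correlated with those of A_55_P2094881 at r = 0.49. Nanog-GFP ESCs had the highest mean on A_51_P432403 and BC_2 OSKM the lowest. On A_55_P2094881 the arrays of neighbouring lines all overlapped, so its lines were not put in order. On A_51_P432403 the lines passed limma's F test (adjusted p = 0.00177).

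Fgfr3, which acts in cartilage and brain, had the widest range of the 10 genes on its 3′ probe A_55_P1996578. Among SNEL lines, Oct4-GFP SNEL#1 had levels of 0.11 and -0.09, Nanog-GFP SNEL#2 -4.01 and -3.90, and Nanog-GFP SNEL#3 -4.95 and -5.0, not well above background on either array. BC_2 OSKM gave 1.21 and 1.30, KH2_OSKM 0.17 and 0.16, Nanog-GFP OSKM#2 -3.05 and -2.85, and Oct4-GFP OSKM#2 -1.42 and -1.34. The ESC lines lay between, from -2.85 to -1.06. BC_2 OSKM was thus at least 53.1-fold above Nanog-GFP SNEL#3, a bound taken against the lowest signal above background on those arrays. The arrays of a line differed little (SD 0.15, against 1.95 between lines), and the lines differed (adjusted p = 2.76e-10, limma's F test).

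SNEL and OSKM lines overlapped on this probe, at -2.97 and -0.73, and the difference of -2.24 ± 1.28 did not pass (SE, adjusted p = 0.591, limma). It was -2.18 within slide 1 and -3.77 within slide 2. The coding probe A_65_P06147 ordered the lines alike (r = 0.81 and rho = 0.85, n = 10 lines), with BC_2 OSKM highest at -2.74 and -1.76. Its range was narrower, 3.71-fold between BC_2 OSKM and Nanog-GFP OSKM#2. Its F test passed (adjusted p = 0.00937) but not with normexp (0.06) or in the deposited value table (0.11).

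Fgfr4, the receptor for Fgf15 in liver, had BC_2 OSKM and KH2_OSKM highest, with overlapping arrays, on its 3′ probe A_55_P2120055. Levels were 0.34 and 0.31 in Oct4-GFP SNEL#1, -0.62 and -0.46 in Nanog-GFP SNEL#2 and -1.0 and -1.16 in Nanog-GFP SNEL#3. Among OSKM lines, BC_2 OSKM had 0.85 and 0.68 and KH2_OSKM 0.71 and 0.54, while Nanog-GFP OSKM#2 and Oct4-GFP OSKM#2 both averaged -0.33. Among ESC lines, Nanog-GFP ESCs were at 0.36 and 0.37, Oct4-GFP ESCs at -0.50 and -0.46 and KH2 ESCs at -1.17 and -0.99. Lines spanned 3.60-fold and differed (adjusted p = 7.49e-08, limma's F test). The spot of this probe had a neighbour shift of 1.51 on the first KH2_OSKM array and 1.01 on the first Nanog-GFP SNEL#3 array. The coding probe A_55_P2121871 correlated with it over lines (r = 0.87), but had KH2_OSKM highest, at a mean of -1.69, above BC_2 OSKM at -2.25 without overlap. Its arrays in Nanog-GFP SNEL#3, at -2.48 and -4.05, were far apart, and its F test did not pass (adjusted p = 0.111). It passed without Nanog-GFP SNEL#3 (0.0165), with slide as a block (0.0482) and with the replicate block (0.0329).

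In the order of the lines, the arrays of neighbours overlapped to different degrees, which is a description with 2 arrays a line. On the 3′ Fgfr3 probe only 1 of the 9 neighbouring pairs overlapped, on Fgf10 2 and on Fgf4 3. On Fgf17 and the 3′ Fgfr4 probe 4 overlapped. On Fgfr2 A_55_P2094881, Fgfr1 A_55_P1967015 and Fgf8 A_55_P2101506 all 9 overlapped, so no order can be read from those. For the downstream Fgf22 probe, the arrays of a SNEL line lay up to 2.72 apart, more than the range of 2.05 between line means, so no order was read there either.

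**Figure D4:**
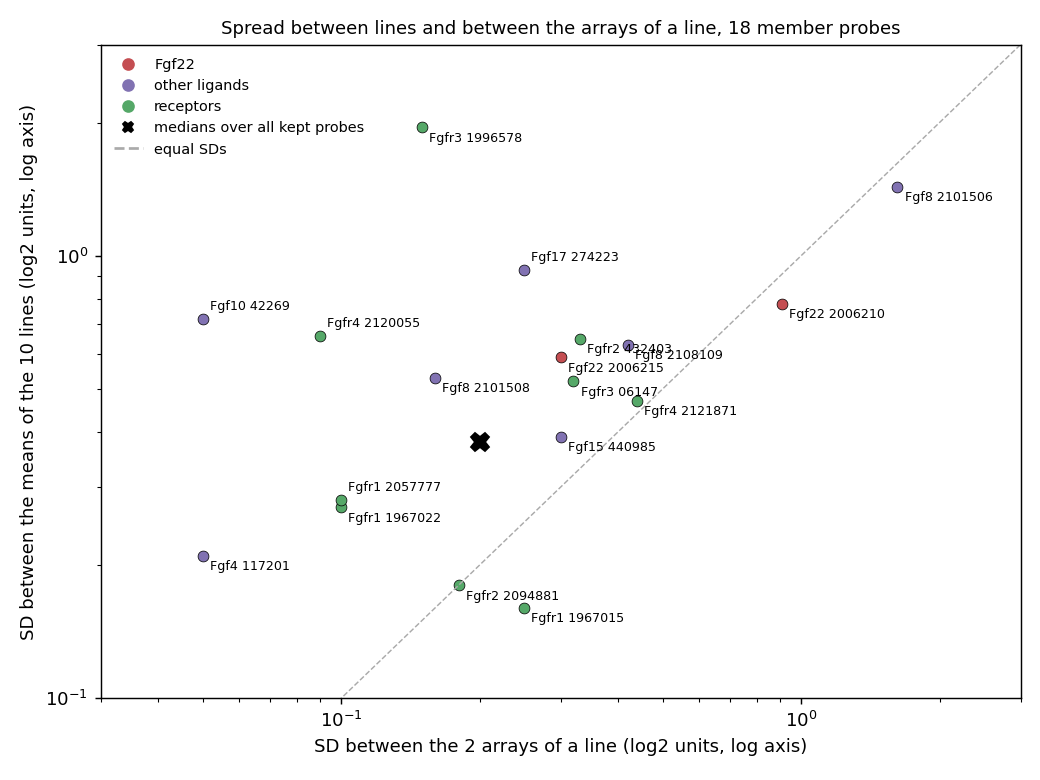
SD between the means of the 10 lines (y axis) against SD between the 2 arrays of a line (x axis), both in log2 units on log axes, for the 18 probes, each named by its gene and the end of its probe name. The cross marks the medians over all kept probes, 0.38 and 0.20, and the dashed line equal SDs. The downstream Fgf22 probe (0.78 between lines, 0.91 within), Fgf8 A_55_P2101506 (1.43 and 1.62) and Fgfr1 A_55_P1967015 (0.16 and 0.25) lie below the line of equal SDs.

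Taken over lines, 12 of the 16 probes other than those of Fgf22 differed by the F test, beside 58.6% of all kept probes (22698 of 38756). Arrays are the replicates in that test, so its p-values do not measure the spread between separate cultures of a line if the arrays are technical. The ratio of the SD between lines to that between arrays had a median of 1.67 over all kept probes. It was 13.96 for Fgf10, 13.43 for the 3′ Fgfr3 probe and 0.85 for the downstream Fgf22 probe. The Fgf10 probe was printed in repeated spots that were averaged on each array, as were only 432 of the 55681 probes. Its ratio is thus not on equal terms with that median, and the part of the averaging in it was not tested.

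Fgf22 is left without a test here, and no probe of the other ligands and receptors passed between groups of lines after adjustment. Between SNEL and OSKM lines 0 of 16 probes passed limma (lowest adjusted p = 0.542, 0 at an unadjusted p under 0.05), beside 0.00258% of all probes. Of these 16 probes, 1 had SNEL line means all above the OSKM ones, Fgfr2 A_55_P2094881, and 0 all below, against 3.42% of all probes above and 4.17% below. The downstream Fgf22 probe lay above as well, which is the difference it was chosen for. Against ESC lines, 0 of 16 probes passed for SNEL lines (0.0% of all probes, lowest adjusted p = 0.665, 0 at an unadjusted p under 0.05). Of the 16, Fgf8 A_55_P2101506 alone had all 3 SNEL lines above all ESC lines, as did 2.9% of all probes, and 0 had them all below (10.3% of all probes). The downstream Fgf22 probe was also above in all 3.

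That Fgf8 probe was well above background on 2 of 6 SNEL arrays and on 0 of 6 ESC arrays, so no fold is given for it (adjusted p = 0.665). It passed the filter on dim probes only through the arrays where it was high, and within slide 3 its difference had the other sign (-0.34). For OSKM lines against ESC lines 0 of 16 passed (0.00774% of all probes passed, lowest adjusted p = 0.562, 0 at an unadjusted p under 0.05), and 0 of 16 had all OSKM lines below (8.33% of all probes) or above (3.82%) all ESC lines. The downstream Fgf22 probe had line means below in all 4, with a difference of -0.33, and of -0.17 within slide 1 and -0.24 within slide 2. The arrays of Oct4-GFP OSKM#2 (mean -3.20) and KH2 ESCs (mean -3.14) overlapped on it. For good and high against poor lines 0 of 16 passed (0.0% of all probes, lowest adjusted p = 0.906, 1 at an unadjusted p under 0.05), and of the 16 only Fgfr1 A_55_P2057777 was lower without overlap (3.6% of all probes), with 0 higher (2.27%). The comparisons of SNEL and of OSKM lines with ESC lines share the ESC lines.

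**Figure D5:**
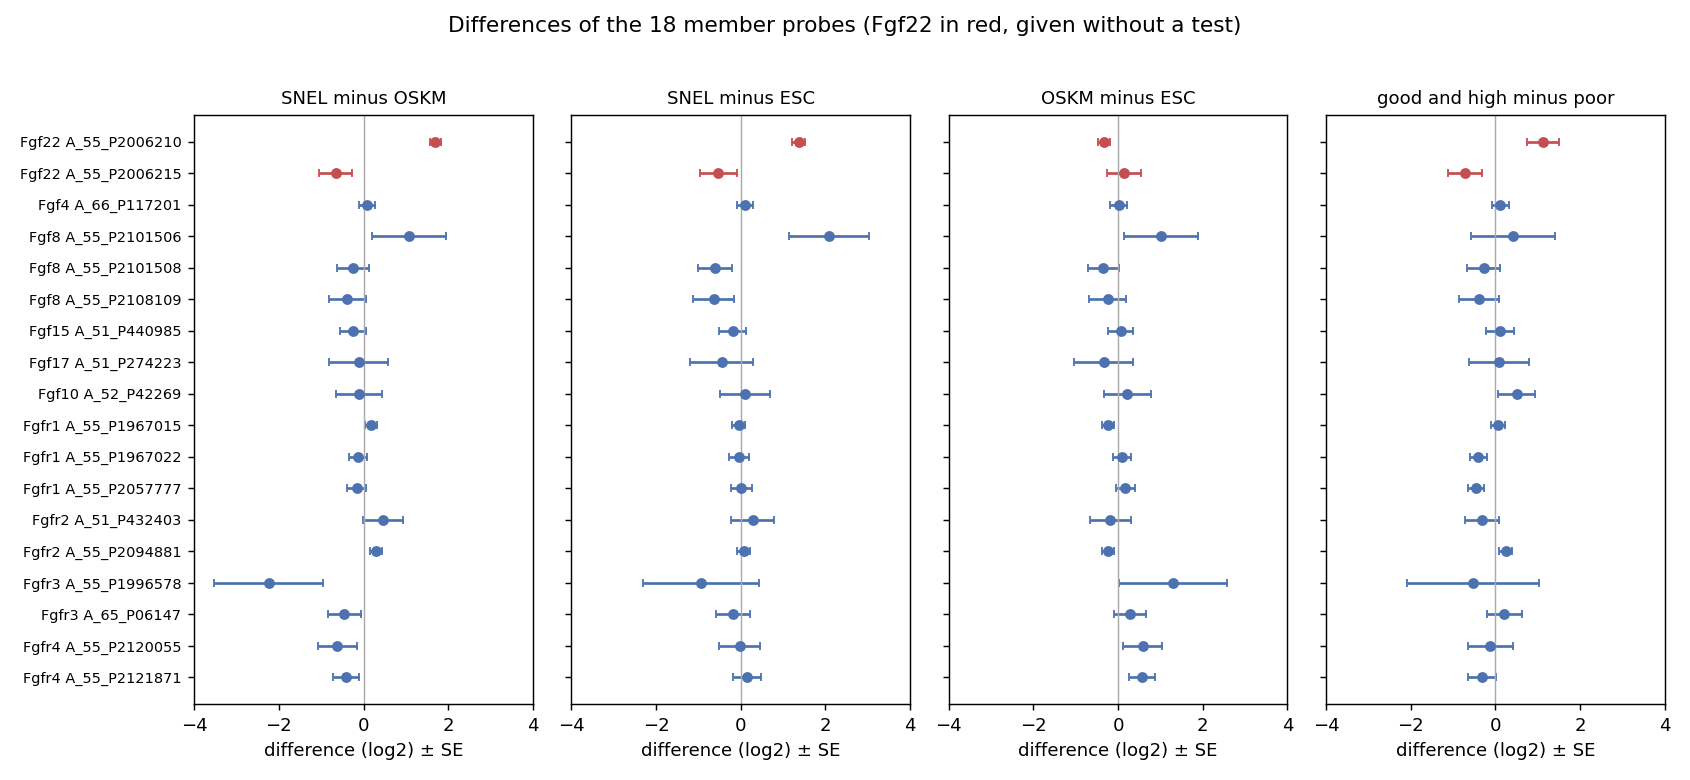
Difference ± SE (log2, x axis) of each of the 18 probes (rows) in the 4 comparisons. The downstream Fgf22 probe (red, top row) is at 1.70 for SNEL minus OSKM lines and the coding probe (red, second row) at -0.66, and the 3′ Fgfr3 probe has wide errors because lines of a group differ.

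Around these genes, the wider FGF pathway was described with 5 lists, each gene read from its brightest kept probe. A gene is called measured here if it had a kept probe, so the others may be on the array but dim. None of the lists had a gene that passed in any of the 4 comparisons. Of 12 other FGF ligands, 8 were measured, and 6 of the 8 differed among lines by the F test, beside 60.9% of all genes. Fgf21, a metabolic hormone that uses beta-Klotho, ranged from -7.28 in Nanog-GFP SNEL#2 to -1.63 in BC_2 OSKM, and Fgf5, a marker of the primed epiblast, from -6.27 in Nanog-GFP OSKM#2 to -2.54 in Oct4-GFP OSKM#2. The smallest p of this list between SNEL and OSKM lines was that of Fgf7, a ligand of epithelia, at 0.53 ± 0.30 (SE, adjusted p = 0.587). In the other comparisons it was that of Fgf1 for SNEL against ESC lines (0.63 ± 0.59, adjusted p = 0.918) and of Fgf23, a bone hormone, for OSKM against ESC (-0.31 ± 0.14, adjusted p = 0.479) and for good and high against poor lines (0.24 ± 0.15, adjusted p = 0.911). Of 4 intracellular FGF homologous factors, which bind sodium channels, 3 were measured and 0 differed among lines by limma's F test (0 at an unadjusted p under 0.05). Their smallest p was that of Fgf13 for SNEL against OSKM lines (-0.51 ± 0.31, adjusted p = 0.61) and for good and high against poor lines (-0.56 ± 0.30, adjusted p = 0.906), and that of Fgf11 for SNEL against ESC (0.42 ± 0.33, adjusted p = 0.877) and OSKM against ESC (0.66 ± 0.31, adjusted p = 0.495).

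Of 27 co-receptors, binding proteins and heparan sulphate enzymes, 25 were measured and 20 differed among lines, beside the same 60.9% of all genes. Between SNEL and OSKM lines 7 of the 25 had an unadjusted p under 0.05, beside 3650 of all 38756 probes, and 0 passed after adjustment. Klb, the beta-Klotho co-receptor that lets Fgfr4 and Fgfr1 bind Fgf15 and Fgf21, had line means of -3.15, -3.43 and -2.24 in SNEL lines, against -0.51, -0.98, 0.26 and -1.65 in OSKM lines and -3.19, -1.92 and -2.68 in ESC lines. The SNEL and OSKM lines did not overlap, but the difference of -2.22 ± 0.49 (SE) did not pass (adjusted p = 0.498), nor did that of 1.88 ± 0.49 between OSKM and ESC lines (adjusted p = 0.205). Median differences of this list were -0.03 between SNEL and OSKM lines and 0.02 between OSKM and ESC lines, beside -0.01 and -0.04 over all probes. The list's smallest p for SNEL against ESC lines was that of Fgfbp3, a carrier of FGFs (-0.74 ± 0.26, adjusted p = 0.566), and for good and high against poor lines that of Gpc3, a heparan sulphate proteoglycan (0.78 ± 0.29, adjusted p = 0.906).

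All 20 adaptors and ERK cascade members were measured, and 17 differed among lines (60.9% of all genes did). Their median difference between SNEL and OSKM lines was 0.08, beside -0.01 over all probes. Of the 20, 14 were higher in SNEL lines, but the share over all genes is not given, so the count is not read further. Frs3, an adaptor of the receptors, had the smallest p of the list for OSKM against ESC (-1.90 ± 0.51, adjusted p = 0.216) and good and high against poor lines (1.08 ± 0.45, adjusted p = 0.906), with 6 of 20 arrays above background. Of 20 feedback and target genes of ERK, 19 were measured and 17 differed among lines, again beside 60.9% of all genes. Of the 19, 14 were higher in SNEL than in OSKM lines, again without the share over all genes. Their median difference was 0.21, beside the same -0.01 over all probes. Ier3, an immediate early gene, had the smallest p of that list for SNEL against OSKM (-1.63 ± 0.61, adjusted p = 0.502), SNEL against ESC (-1.37 ± 0.65, adjusted p = 0.682) and good and high against poor lines (-1.33 ± 0.73, adjusted p = 0.906). Phlda1 had it for OSKM against ESC lines (0.56 ± 0.21, adjusted p = 0.376). Dusp6, the ERK phosphatase, had line means of 3.23, 3.21 and 1.68 in SNEL lines, 0.73, 0.18, 2.13 and 2.69 in OSKM lines and 2.46, 1.19 and 2.11 in ESC lines. It was chosen for naming after its values were seen, as were Fgf21 and Fgf5, and its SNEL and OSKM lines overlapped.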

How the data were processed

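RNA of 10 lines was measured on 20 Agilent arrays in 1 colour (Cy3, design 028005). The deposited scanner files hold intensities from Feature Extraction 10.1.1.1, per the file headers, with probe coordinates on mm9. A deposited table of processed log2 values, with array medians of 6.27 to 6.28, served as an alternative; how its background was handled is not stated, and limma is named in the submitters' processing notes.

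The background-corrected intensity (processed signal) was divided by each array's 75th percentile and put on the log2 scale. Outlier spots were left out, repeated spots averaged, and probes kept that were well above background on 4 or more of the 20 arrays. That percentile was 513.3 to 914.29 across arrays; precision is limited by how many arrays there are. The 2 arrays of a line were averaged, groups of lines were compared with limma 3.58.1 (R 4.3.3), and lines with limma's moderated F test over 20 arrays, both adjusted by Benjamini-Hochberg over 38756 probes at 0.05. The procedure was tried on simulated line values for the comparisons among SNEL, OSKM and ESC lines, and no result here rests on that trial. Gene names were updated through RefSeq, which matched 26413 probes. Coding or 3′ location comes from transcript positions in the files and general knowledge of the genes, without an annotation.

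Members and lists were chosen with earlier results of these data known. Named are every member probe, the 5 genes most like each Fgf22 probe, and in each list the genes that passed or, where none did, the gene of smallest p in each comparison; 1 such gene is not reported here.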

Additional observations from a re-analysis of the deposited data

Results flagged for a closer look

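In 36 groups of 4 lines (18 probes in OSKM lines and in good and high lines), 2 values stood far from the others by Dixon's criterion. Chance meets that criterion in about 1 of 20 groups, so 2 of 36 is near the number expected by chance. Both values are descriptions. Fgf8 A_55_P2101506 was at -4.41 in KH2_OSKM and between -7.71 and -7.20 in the other OSKM lines, where no array was well above background, and the probe passed the filter with 4 arrays, 2 of them those of KH2_OSKM. Fgf22 A_55_P2006210 was at -3.60 in BC_2 OSKM and between -1.74 and -1.55 in the other good and high lines. Those are all SNEL, so this repeats the difference for which the gene was chosen.

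The difference between SNEL and OSKM lines ran opposite ways in lines named Nanog-GFP and Oct4-GFP for 5 probes, with no overlap of arrays on either side. This was not tested, since the Oct4-GFP side has 1 line of each kind. The share of all kept probes with this pattern is not given, so the count is not read as a trait of these genes. Fgf17 was 0.89 higher in the Nanog-GFP SNEL lines and differed by -1.64 in Oct4-GFP, a gap of 2.53. Fgf8 A_55_P2108109 differed by 0.66 and -0.70 (gap 1.36), and Fgf10 by 0.38 and -0.34 (gap 0.72). That Fgf8 probe was well above background on neither array of Nanog-GFP SNEL#3 and on 1 of 2 in Nanog-GFP OSKM#2 and in Oct4-GFP SNEL#1. The other 2 probes ran the other way, with Fgfr3 A_55_P1996578 at -1.52 and 1.39 (gap -2.91) and Fgfr4 A_55_P2120055 at -0.48 and 0.65 (gap -1.13). Fgfr3 A_55_P1996578 was well above background on neither array of Nanog-GFP SNEL#3. The coding Fgfr3 probe A_65_P06147 did not share its signs. Its Nanog-GFP SNEL lines, at -3.65 and -3.91, were above Nanog-GFP OSKM#2 at -4.15, with some arrays overlapping. Its Oct4-GFP SNEL#1, at -3.39, was below Oct4-GFP OSKM#2 at -3.13. No contrast of ligands with receptors is read from these probes.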

How the results depend on the processing

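Counts of probes that passed were small and moved with the processing, the cause of which was not tested. SNEL against OSKM lines gave 1, and gave 7 under quantile normalization, 2 with normexp, 2 in the deposited value table, 0 with no filter, 2 with the brightest probe of each gene, 7 with slide as a block, 0 without the first SNEL arrays and 2 without the first KH2_OSKM array. OSKM against ESC lines gave 3, and gave 0 with normexp, 0 in the value table, 0 with probes above background on all arrays and 11 with slide as a block. Good and high against poor lines gave 0, and gave 1 under quantile normalization and 5 with slide as a block. With the replicate block, the 2 arrays of a line kept apart, counts were 27 (SNEL against OSKM), 3 (SNEL against ESC), 43 (OSKM against ESC) and 8 (good and high against poor). For the array numbers, 29 of 45 pairs of lines had a correlation of deviations over 0.1 (median 0.15, range -0.10 to 0.47). Since this did not hold for every pair, and most first arrays share slide 1, the numbers were not taken to pair the lines.

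Leaving out 1 line gave 0 to 409 for SNEL against OSKM, 0 to 60 for SNEL against ESC, 0 to 158 for OSKM against ESC, 0 to 1 for good and high against poor and 21700 to 23065 among lines. The highest of the first 3 came without Oct4-GFP SNEL#1. Leaving aside Fgf22, whose values chose it, no member passed between groups under any of these alternatives. Of member differences under alternatives, 1487 moved by less than the spread between lines and 55 by more, 21 of these on the downstream Fgf22 probe. Among lines, 259 of the members' F tests kept their side of the threshold, 10 lost it and 5 gained it. Both settings without first arrays were chosen after seeing the data. Dim signal limits Fgf8 A_55_P2101506 (above background on 4 of 20 arrays) and Fgfr2 A_51_P432403 (8 of 20) most.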
